A study of Mus musculus with 4 samples.

Results

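Tumour necrosis factor (TNF) genes of mouse bone marrow neutrophils were followed through 8 genes: the ligands Tnf, Ltb, Tnfsf9, Tnfsf10 and Tnfsf14, the receptors Tnfrsf1a and Tnfrsf1b, and Tnfaip2. Tnfaip2 is neither a ligand nor a receptor but a gene named for its induction by TNF. The members were every probe set annotated with exactly 1 of these symbols, which gave 8 genes of 18193 named on the array and 14 probe sets of 45101. Tnfsf10 and Tnfaip2 had 3 probe sets each, Tnfsf14 and Tnfrsf1b had 2 each, and the others had 1. None of the 3 Tnfsf10 probe sets and only 1 of 4 arrays for Tnfsf9 gave a signal above the floor described next, so the account rests on the other 6 genes.

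The arrays hold 4 groups of C57BL/6 mice aged 8 weeks: wild type (miR-125a+/+) without LPS, knockout (miR-125a-/-) without LPS, wild type after 3 h with LPS, and knockout after 3 h with LPS. LPS, lipopolysaccharide, is the bacterial cell wall component that Toll-like receptor 4 detects. All groups were neutrophils enriched from marrow with magnetic beads and kept in medium with serum. The labels do not describe the knockout as limited to any cell type, and leave unsettled how long the cells without LPS had been cultured. RNA of 3 experiments was pooled per group and put on 1 Affymetrix array, so no group has a replicate, no test was run, and every difference below compares single arrays. The values are log2 signals. Signals under log2 6.80 (111 unlogged, the 60th percentile of all values) were set to that floor, a difference was called from 2-fold (log2 1), and where 1 of the compared values was at the floor the difference is the least it can be. Differences are LPS minus unstimulated, or knockout minus wild type.

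TNF is made as a membrane-bound trimer that the protease ADAM17 releases from the cell surface. It binds TNFR1, encoded by Tnfrsf1a, which carries a death domain and recruits the adaptor TRADD, and TNFR2, encoded by Tnfrsf1b, which lacks that domain and binds TRAF proteins directly. Both lead to NF-kB and can alter survival, and neutrophils are at once a source of TNF and a target that it primes. Lymphotoxin beta, the product of Ltb, is a membrane protein that pairs with lymphotoxin alpha to engage the receptor LTBR. The product of Tnfsf14, LIGHT, binds LTBR and HVEM, those of Tnfsf9 and Tnfsf10 are 4-1BBL and TRAIL, and Tnfaip2 encodes M-Sec, a cytoplasmic protein linked to membrane protrusions.

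The microRNA missing in the knockout is shown first, since its seed, in capitals, is the stretch that pairs with target transcripts. Its 5p arm, from the RefSeq entry on GRCm38.p6, lies at chr17:17830817-17830840 on the plus strand.
mmu-miR-125a-5p: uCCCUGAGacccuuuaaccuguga
Tnf, Ltb, Tnfsf9 and Tnfsf14 lie on the same chromosome, 17, as this microRNA, whereas Tnfsf10 lies on 3, Tnfrsf1a on 6, Tnfrsf1b on 4 and Tnfaip2 on 12. The microRNA itself was not measured here.

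Promoter windows are given for the 5 genes whose signals were called after LPS, from 250 bases before to 50 after the start of transcription (RefSeq, GRCm38.p6). Entries were found for 7 of the 8 genes, all but Tnfsf9. Capitals mark matches, on either strand, to the NF-kB consensus (Ltb and Tnfaip2), to TATAAA (Tnf) and to the AP-1 site TGANTCA (Tnfsf14), and none of these overlap.
Tnf, chr17:35201958-35202257, minus strand: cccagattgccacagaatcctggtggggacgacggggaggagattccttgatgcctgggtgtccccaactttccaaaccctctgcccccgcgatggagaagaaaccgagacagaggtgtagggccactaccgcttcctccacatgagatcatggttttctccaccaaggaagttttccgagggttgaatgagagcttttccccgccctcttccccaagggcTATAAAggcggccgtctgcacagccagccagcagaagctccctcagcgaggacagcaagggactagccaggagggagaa
Ltb, chr17:35194257-35194556, plus strand: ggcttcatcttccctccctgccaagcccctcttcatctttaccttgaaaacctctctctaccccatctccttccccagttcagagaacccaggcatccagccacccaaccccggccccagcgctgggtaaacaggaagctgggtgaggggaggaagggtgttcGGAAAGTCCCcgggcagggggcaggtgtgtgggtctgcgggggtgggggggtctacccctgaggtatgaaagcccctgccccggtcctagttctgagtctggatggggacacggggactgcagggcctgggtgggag
Tnfrsf1b, chr4:145246821-145247120, minus strand: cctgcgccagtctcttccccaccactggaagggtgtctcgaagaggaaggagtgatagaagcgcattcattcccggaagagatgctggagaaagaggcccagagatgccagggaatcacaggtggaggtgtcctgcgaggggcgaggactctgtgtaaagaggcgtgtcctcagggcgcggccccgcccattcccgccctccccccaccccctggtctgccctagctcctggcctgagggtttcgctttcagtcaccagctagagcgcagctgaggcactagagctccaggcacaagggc
Tnfaip2, chr12:111442411-111442710, plus strand: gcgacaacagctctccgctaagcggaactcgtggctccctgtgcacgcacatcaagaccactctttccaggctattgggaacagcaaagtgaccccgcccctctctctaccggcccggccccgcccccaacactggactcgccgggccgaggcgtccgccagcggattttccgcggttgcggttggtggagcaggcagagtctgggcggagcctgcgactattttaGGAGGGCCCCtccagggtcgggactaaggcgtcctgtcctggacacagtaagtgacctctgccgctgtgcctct
Tnfsf14, chr17:57194132-57194431, minus strand: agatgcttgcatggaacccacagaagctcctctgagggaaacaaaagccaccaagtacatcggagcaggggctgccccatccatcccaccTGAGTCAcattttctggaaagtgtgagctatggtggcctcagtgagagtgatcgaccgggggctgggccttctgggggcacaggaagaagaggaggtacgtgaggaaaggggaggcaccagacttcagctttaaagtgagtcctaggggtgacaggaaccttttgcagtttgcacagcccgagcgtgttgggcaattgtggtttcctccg
In Ltb the match GGAAAGTCCC runs from -87 to -78 relative to the start and reads as the consensus on the opposite strand. The Tnfaip2 match GGAGGGCCCC runs from -24 to -15 and likewise reads as the consensus on the opposite strand. The Tnf TATAAA runs from -29 to -24, and the Tnfsf14 TGAGTCA from -160 to -154. Of 32851 such windows, 8.46% held the NF-kB consensus, 13.6% TATAAA and 7.81% TGANTCA, against 2, 1 and 1 of the 7 member windows. TGACG, part of the cyclic AMP response element, was found in 20.8% of windows and among the members in Tnfsf10 alone. The windows of Tnfrsf1a and Tnfrsf1b held no match, and the Tnfrsf1b window is shown because that gene had the highest LPS difference of the members.

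On the whole array, between 37.8% and 41.5% of probe sets exceeded the floor. Of 13 neutrophil markers 11 had a probe set, and all 11 were above the floor on all 4 arrays. After LPS, Cxcr2 was called lower in knockout cells (log2 -1.11) but not in wild-type cells (-0.62). None of the other neutrophil markers was called after LPS. Among other cell types, 9 of 10 T and NK cell markers on the array (the exception was Cd3d) and 4 of 9 B cell markers (Cd79a, Ms4a1, Pax5 and Ebf1) stayed below the floor on every array, whereas Cd79b and Blnk were above it on all 4. Monocyte and macrophage markers went both ways with treatment. In each genotype Adgre1, Vcam1, Csf1r and Cx3cr1, 4 in all, were called higher after LPS and 2, Ccr2 (log2 -3.88 and -3.54) and F13a1 (-1.93 and -1.79), lower. Over 11 genes their summed signal was 24445 in unstimulated wild-type and 24695 in unstimulated knockout cells, and 47599 and 44605 after LPS, while Mrc1, C1qa and C1qb stayed below the floor. Of 9 dendritic cell markers 5 were above the floor on every array and Flt3, Zbtb46, Siglech and Xcr1 on none. Their summed signal was 2052 and 2068 unstimulated and 2878 and 3005 after LPS (wild type, knockout), with H2-Ab1 called higher in both genotypes. Summed over 8 genes, erythroid markers had signals of 5022 and 7196 unstimulated (wild type, knockout) and 2796 and 3365 after LPS. After LPS 1 of them was called lower in wild-type and 4 in knockout cells. Car1, an erythroid marker, was called higher in the knockout unstimulated. It was below the floor on both treated arrays, so the call between its LPS responses rests on bounds.

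Tnf, the founding ligand of the family, was far higher after LPS in both genotypes. Its signal was 1811 in unstimulated wild-type cells, 1636 in unstimulated knockout cells, 13885 in wild-type cells after LPS and 11901 in knockout cells after LPS. The treated arrays stood well apart from the untreated ones, and the wild-type array was slightly above the knockout array at both times. This is a 7.67-fold difference in wild-type and a 7.27-fold difference in knockout cells (log2 2.94 and 2.86), at rank 75 from the highest of 9507 measured genes and rank 69 of 9578. In whole preparations like these, more transcript per cell and more cells of an expressing type cannot be told apart, and the part in this difference of the monocyte markers, 4 higher and 2 lower, and of the dendritic cell markers, 1 higher, was not tested.

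Ltb was likewise higher after LPS in both genotypes. Its signals were 3949 and 4141 unstimulated (wild type, knockout) and 26867 and 26281 after LPS. Each genotype therefore showed the same separation between untreated and treated cells, 6.80-fold and 6.35-fold. Ltb stood at rank 86 from the highest in both genotypes. Ltb is widely known as a gene of lymphocytes. The summed signal of the T and NK cell markers was 1272 and 1079 unstimulated and 1209 and 990 after LPS, and that of the B cell markers was 1208 and 1100 against 1101 and 1062. Cd3d was the one T and NK cell marker above the floor. The part of such cells, or of the dendritic and monocyte markers, in the Ltb difference was not tested.

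Tnfsf14 went the other way. In its brighter probe set the signals were 733 and 762 in unstimulated wild-type and knockout cells and 111 and 126 after LPS, the wild-type value falling just under the floor. Both treated arrays were thus near the limit of measurement and both untreated arrays clearly above it. The difference was at least 6.59-fold in wild-type cells and 6.04-fold in knockout cells, at rank 30 and rank 24 from the lowest. The dimmer probe set was above the floor only unstimulated, at log2 6.91 and 7.11, and was listed at 2.80 and 4.64 after LPS. With the floor at the 75th percentile, which lies above both treated signals, the wild-type bound was -0.98 and no longer called, and in the mean over both probe sets the log2 differences were -1.41 and -1.55.

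Tnfsf9, which encodes the costimulatory ligand 4-1BBL, was barely detected. Its signals were 90.6 and 68.3 unstimulated and 143 and 86.5 after LPS (wild type, knockout), so that only the treated wild-type array exceeded the floor. The wild-type difference was at least 1.29-fold and was not called, and none could be given for knockout cells. Its receptor gene Tnfrsf9 was below the floor on all 4 arrays.

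Tnfsf10, which encodes the death-inducing ligand TRAIL, was not above the floor in any probe set. Its brightest probe set ranged from a signal of 36.5 to 72.6, and the lowest value of the others was 11.8. At such signals the 3 probe sets did not move together: unfloored LPS differences in wild-type cells were log2 -0.45, 0.77 and -2.01, and in knockout cells 0.48, 0.80 and 0.12. The gene of its receptor, Tnfrsf10b, was below the floor on all arrays too.

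**Figure D1:**
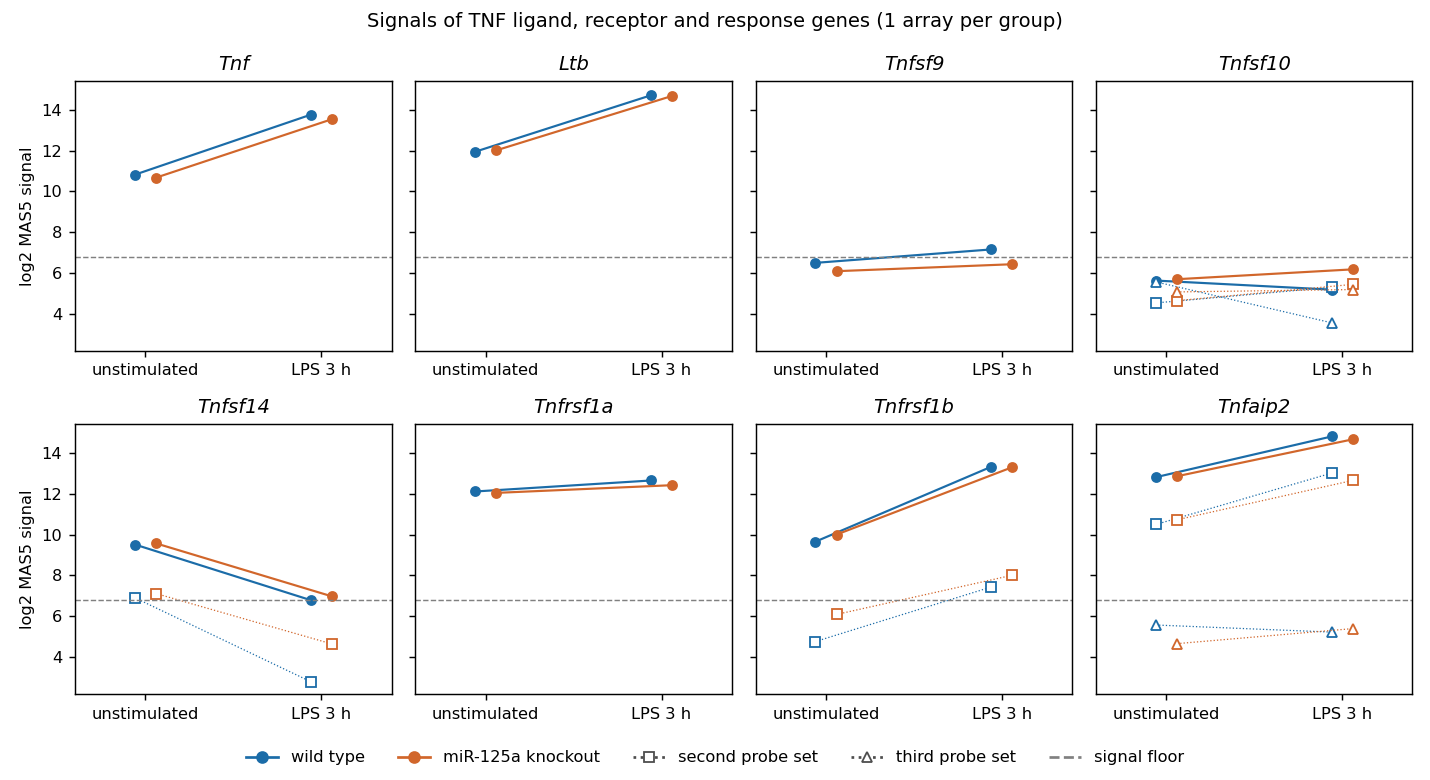
Log2 MAS5 signal (vertical axis) of every probe set of the 8 genes in unstimulated cells and after 3 h with LPS, with wild type in blue and miR-125a knockout in orange; each point is 1 array, lines join the arrays of a genotype, filled circles are the brightest probe set, open symbols the others, and the dashed line is the floor at log2 6.80. Tnf, Ltb, Tnfrsf1b and the 2 brighter Tnfaip2 probe sets slope upward and Tnfsf14 downward in both genotypes, while Tnfsf10 lies below the floor throughout.

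The receptors differed from each other. Tnfrsf1b, the TNFR2 gene, had signals of 808 and 1028 unstimulated and 10293 and 10148 after LPS (wild type, knockout). The treated arrays were nearly equal and the untreated ones a little apart, with knockout the higher. The difference was 12.7-fold in wild-type and 9.88-fold in knockout cells, at rank 34 of 9507 and rank 44 of 9578 from the highest. The second Tnfrsf1b probe set was much dimmer, 27.1 and 68.1 unstimulated and 173 and 259 after LPS, which puts the difference at no less than log2 0.64 and 1.22.

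Tnfrsf1a, the TNFR1 gene, was above the floor on every array and was not called. Its signals were 4439 and 4234 unstimulated and 6451 and 5499 after LPS. The log2 differences of 0.54 in wild-type and 0.38 in knockout cells fell short of 2-fold, and turned to -0.05 and -0.25 with the arrays scaled on poly-A spike-in controls, a scale on which the median of all genes moved by -0.54 and -0.57. Set beside each other within the same arrays, the difference of Tnfrsf1b exceeded that of Tnfrsf1a in both genotypes.

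Tnfaip2, the TNF-inducible gene, was called higher after LPS in both genotypes. In its brightest probe set the signals were 7210 and 7444 unstimulated and 28752 and 26090 after LPS. The 2 treated arrays again lay above the 2 untreated ones. The differences were 3.99-fold and 3.50-fold, at rank 202 and rank 240 from the highest. That probe set bears the suffix of probe sets that may cross-hybridise. The second, which does not, read 1447 and 1696 unstimulated and 8296 and 6464 after LPS, for log2 differences of 2.52 and 1.93. The third was below the floor on all arrays.

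Of the 8 members, Tnf, Ltb, Tnfrsf1b and Tnfaip2, 4 in all, were called higher with LPS in wild-type cells and 1, Tnfsf14, was called lower, with Tnfrsf1a and Tnfsf9 neither and Tnfsf10 not measured. Among all measured genes the same rule called 7.29% higher and 9.69% lower. In knockout cells the same 5 genes were called in the same directions, where 6.62% of all genes were higher and 7.99% lower, and neither Tnfsf9 nor Tnfsf10 was measured. These genes were picked with earlier results in view, so their share is a description. 

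**Figure D2:**
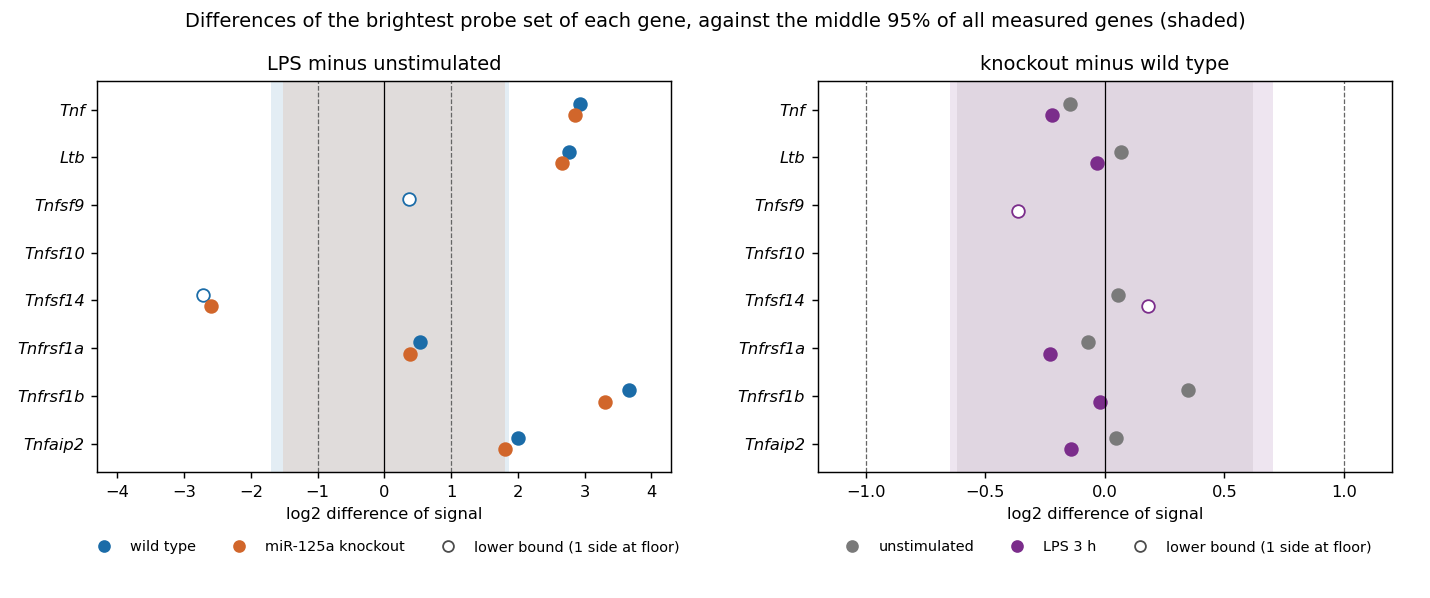
Log2 differences of signal (horizontal axis) for the brightest probe set of each gene, LPS minus unstimulated on the left (blue, wild type; orange, knockout) and knockout minus wild type on the right (grey, unstimulated; purple, LPS), with open points for lower bounds, dashed lines at 2-fold and shading over the middle 95% of all measured genes. Tnf, Ltb, Tnfrsf1b and Tnfsf14 lie outside the shading on the left in both genotypes, and Tnfaip2 lies at its edge. On the right all points lie inside it, those of Tnfsf9 and Tnfsf14 after LPS as lower bounds.

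The question of the knockout is whether loss of miR-125a alters these transcripts. In unstimulated cells none of the 8 members was called by genotype, 2 of them not being measured, where the rule called 1.01% of all genes. Tnfrsf1b had the largest difference of the 6, 1.27-fold higher in the knockout (log2 0.35), inside the range of -0.62 to 0.62 that held the middle 95% of all genes. In the mean over its probe sets, of which the dimmer was below the floor here, that value was 0.84. Tnf had -0.15, Ltb 0.07, Tnfsf14 0.06, Tnfrsf1a -0.07 (0.05 on the poly-A scale) and Tnfaip2 0.05 (-0.21 in the mean over probe sets). The second probe set of Tnfaip2 had 0.23 and that of Tnfsf14 had 0.21.

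After LPS, again 0 of the 8 members were called by genotype, against 1.24% of all genes. Tnf was 1.17-fold lower in the knockout (log2 -0.22) and Tnfrsf1a 1.17-fold lower (-0.23). Ltb stood at -0.03 and Tnfrsf1b at -0.02, both turning positive on the poly-A scale (0.05 and 0.06), and Tnfaip2 at -0.14, with -0.36 in the second Tnfaip2 probe set. The second Tnfrsf1b probe set, above the floor on both treated arrays, had 0.58, and the mean over the Tnfrsf1b probe sets was 0.28. Tnfsf9 was at least 1.29-fold lower and Tnfsf14 at least 1.13-fold higher in the knockout, each with 1 array at the floor. The middle 95% of all genes spanned -0.65 to 0.70. All these values lay within it as floored, but those of Tnfsf9 and Tnfsf14 are bounds. With the floor at the 50th percentile or left out, Tnfsf9 had -0.725. Tnf was thus below wild type at both times, at -0.15 and -0.22. It stayed below under quantile, median and poly-A scaling, and inside the middle 95% at both times.

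The LPS responses of the genotypes were then set against each other, as the knockout difference minus the wild-type difference. No member was called, where 2.17% of all genes were. The values were -0.08 for Tnf, -0.10 for Ltb, -0.16 for Tnfrsf1a, -0.19 for Tnfaip2 and -0.37 for Tnfrsf1b, and Tnfsf14 had 0.12 with its treated wild-type value at the floor. The signs of Tnfaip2 and Tnfsf14 depended on the setting: Tnfaip2 had 0.10 on averaging its probe sets and -0.59 when those that may cross-hybridise were left out, and Tnfsf14 had -0.03, -0.01 and -0.17 under quantile, median and poly-A scaling. The second Tnfrsf1b probe set, below the floor on both unstimulated arrays, had 0.58 as floored, which rests on bounds, and -0.75 unfloored. The difference between the responses was not tested, for want of replicates.

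Other genes of the pathway, from lists that were drawn up for this account, were counted in the same way, with shares of all genes as above. Of 13 further TNF superfamily ligand genes, 9 were on the array and 2 above the floor. Lta, the partner of Ltb, was listed far below the floor unstimulated (log2 3.08 and 2.17) and at 8.74 and 8.93 after LPS, at least 3.84-fold and 4.39-fold higher. With the floor at the 75th percentile those bounds were 0.20 and 0.39 on the log2 scale and not called. Tnfsf13b, the gene of the B cell survival factor BAFF, had -0.09 and 0.23.

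Of 26 further receptor genes, 25 were on the array and 12 above the floor. In wild-type cells 2 were higher, 1 lower and 9 neither, with a median log2 difference of -0.03, and in knockout cells 3 were higher, 1 lower and 8 neither (median 0.11). The median of all genes was -0.03 and -0.05. Cd40, a costimulatory receptor, was at least 14.7-fold and 14.1-fold higher (wild type, knockout), and its 2 other probe sets gave lower bounds from log2 3.65 to 4.12. Fas, a death receptor, had 3.72 and 5.40, and Tnfrsf18, the GITR gene, stood at -1.29 and -1.61. Of the receptors for the member ligands, Ltbr had -0.22 and 0.08. Tnfrsf14, which encodes HVEM, the other receptor of the Tnfsf14 product, had 0.31 and 1.28, and 0.65 in knockout cells on the poly-A scale.

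The genotype calls in these lists were of receptor genes. In unstimulated cells Fas was lower in the knockout at log2 -1.68 and Tnfrsf14 at -1.07, and after LPS the same genes stood at 0.00 and -0.10. The Tnfrsf14 call ended under quantile normalization, just short of 2-fold, and poly-A scaling (-0.96), and that of Fas with the floor at the 75th percentile (-0.33). Tnfrsf14 was not measured with that higher floor. Its unstimulated knockout value, on which this call and its LPS call in knockout cells rest, was log2 6.88, just above the main floor. Fas was also the gene among these lists whose LPS responses differed by 2-fold or more, by 1.68, or 0.33 with that higher floor. No gene of the other 5 lists was called by genotype at either time.

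Of 30 genes of the TNF receptor signalling complex 27 were on the array, all above the floor somewhere. In wild-type cells 6 of 26 measured were higher and 0 lower (median 0.43), and in knockout cells 5 of 27 were higher and 1 lower (median 0.39). Traf1, an adaptor that binds TNFR2, was at least 19.9-fold higher in wild-type and 16.4-fold higher in knockout cells. Its second probe set gave no less than 4.94 and 4.95. Birc3, the ubiquitin ligase cIAP2, had 1.78 and 1.83, and Traf2, which recruits it, 1.29 and 1.19. Cflar, which restrains caspase-8, had 1.65 and 1.98. Of its 4 other probe sets 3 gave positive values, from 0.82 to 1.89, and the fourth was lower, at -1.64 and -1.37. Tradd, the adaptor of TNFR1, had 1.12 and 1.12, and its second probe set 0.58 and no less than 0.82. Map3k5, a stress-activated kinase, had 1.16 and 0.89, and Tab3, a subunit of the TAK1 kinase complex, -0.96 and -1.17. Some of these calls depended on the settings: averaging over probe sets ended those of Cflar (0.90 and 0.96) and Tradd (0.16 and 0.13), and poly-A scaling those of Tradd, Traf2 and Map3k5. Both medians turned negative on that scale (-0.16 and -0.24).

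Of 8 genes that process TNF at the membrane, 6 were above the floor. Adam17, the TNF-converting protease, had 1.75 in wild-type and 1.53 in knockout cells, and its 2 other probe sets ranged from 1.24 to 1.45. On the poly-A scale its knockout value was 0.90. Rhbdf2, which escorts ADAM17 to the surface, had 0.68 and 0.60. Sppl2a, an intramembrane protease that cleaves the remaining TNF stub, had 1.12 and 0.96, and its wild-type call ended on averaging its probe sets (0.45) and on the poly-A scale (0.52). The list had 2 of 6 higher in wild-type and 1 of 6 in knockout cells (medians 0.58 and 0.51, which were -0.01 and -0.12 on the poly-A scale).

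The genes named like Tnfaip2 for induction by TNF, with their partners, had 3 of 8 measured higher and 1 lower in each genotype (medians 0.42 and 0.62). Tnip1, a partner of the ubiquitin editor A20, had 4.25 and 4.15, Tnfaip3, which encodes A20, 2.99 and 2.84, and Tnfaip8 was 2.84-fold and 2.83-fold higher. Tnip2 was the lower one, at -1.31 (a bound) and -1.30, and was not measured under the 75th percentile floor. The Tnfaip8 calls ended on the poly-A scale (0.92 and 0.87), where the list medians were -0.18 and -0.01.

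Among 12 genes that act on TNF messenger RNA, 4 were higher and 1 lower in each genotype (medians 0.29 and 0.15). Zc3h12a, the RNase regnase-1, had 3.09 and 2.38, Mapkapk2, a kinase that relieves TNF translation from repression, 2.66 and 2.37, and Zfp36l1, an RNA-decay factor, 2.32 and 2.44. The second Zc3h12a probe set gave less, 1.26 and 0.91, the knockout value being short of 2-fold. Mapk14, the p38 kinase above Mapkapk2, had 1.24 and 1.04, and Zfp36l2 was lower at -1.03 and -1.13, calls that ended with median scaling (-0.79, wild type) and with averaging over probe sets (-0.96, knockout). Zfp36, which encodes tristetraprolin, the decay factor best known for TNF, had 0.31 and 0.12. The medians were -0.30 and -0.48 on the poly-A scale and -0.14 and -0.35 on averaging over probe sets, and in both settings Mapk14 was not called in wild-type cells (0.65 and 0.92). In knockout cells the Mapk14 call ended under quantile normalization (0.90) and poly-A scaling (0.41). The other measured Mapk14 probe sets ranged from 0.32 to 1.69 in wild-type cells, and from -0.38 to no less than 1.84 in knockout cells.

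**Figure D3:**
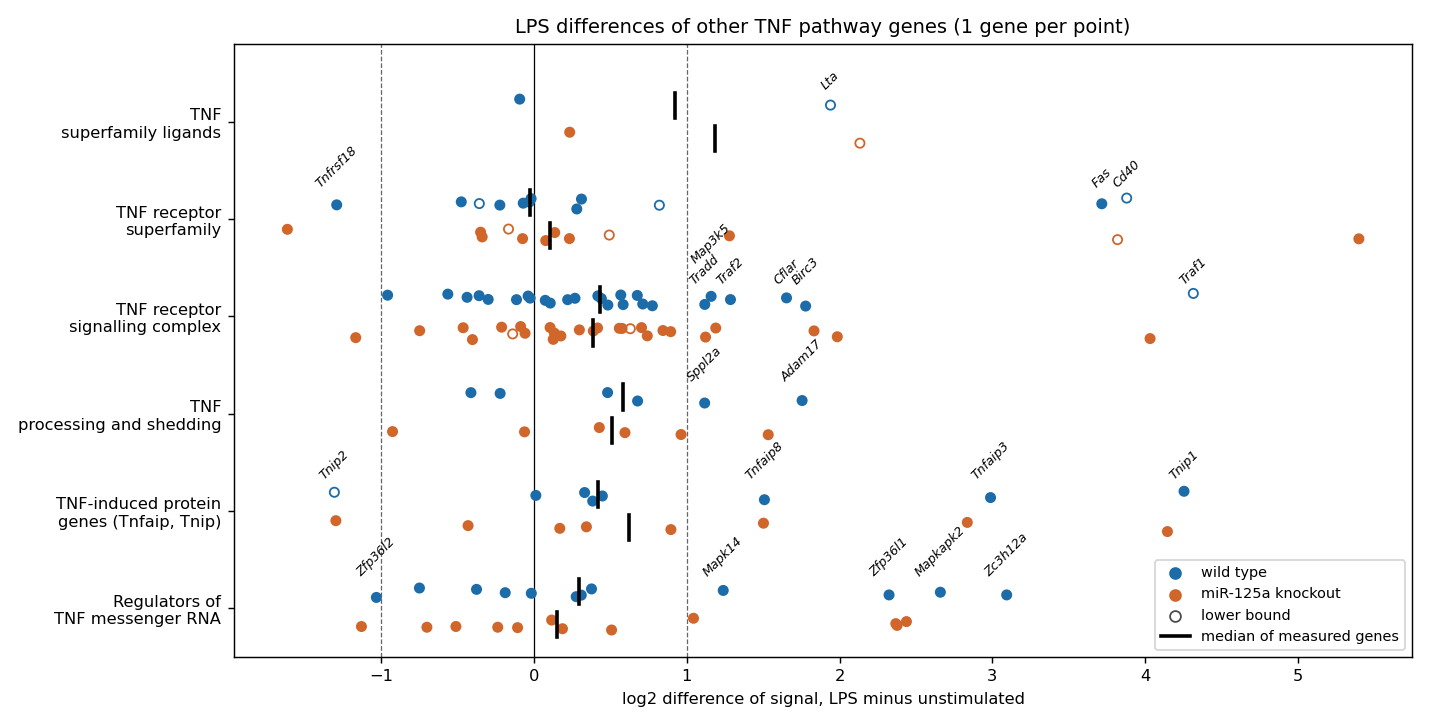
Log2 difference of signal, LPS minus unstimulated (horizontal axis), for each measured gene of the 6 further lists, wild type in blue and knockout in orange, with open points for lower bounds, black bars for list medians and dashed lines at 2-fold; gene names mark the wild-type calls. Cd40, Fas, Traf1, Tnip1 and Tnfaip3 lie far to the right in both genotypes, while most receptor and signalling genes lie between the dashed lines.

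The position of the members allowed a further description. In the reference gene table Ltb, Tnf and Lta follow each other directly, and Tnfsf9, Cd70 and Tnfsf14 likewise. Of 13 other genes that were among the 3 nearest protein-coding genes on either side of the 4 members on chromosome 17, 12 were on the array. In wild-type cells 3 of 10 measured were higher after LPS, namely Lta, Lst1 and Nfkbil1, and 0 were lower, and in knockout cells Lta and Lst1, 2 of 8, were higher. The shares of all genes called higher were 7.29% and 6.62%, and lower 9.69% and 7.99%. Lst1, a myeloid gene of the same locus, had 1.18 and 1.06, and Nfkbil1, beyond Lta, 1.06 and 0.95. The Lst1 calls ended under quantile normalization (0.98 and 0.91) and poly-A scaling (0.59 and 0.43), and the latter gave Nfkbil1 0.47 in wild-type cells. In knockout cells Nfkbil1 was called higher under quantile normalization (1.08) and median scaling (1.05). Aif1, next to Lst1, had -0.55 and 0.03. Around Tnfsf14 no other gene was called: Cd70 was below the floor on all arrays, and Gpr108 had -0.46 and -0.19. On the poly-A scale Dennd1c, a neighbour of Tnfsf9, was called lower in both genotypes (-1.10 and -1.26). Gpr108 and, beside Lst1, Aif1 were called lower on that scale in wild-type cells (-1.05 and -1.04). None of the neighbours was called by genotype at either time, except Tubb4a, a tubulin gene, when the floor was at the 50th percentile (-1.25) or left out (-1.85, unstimulated).

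**Figure D4:**
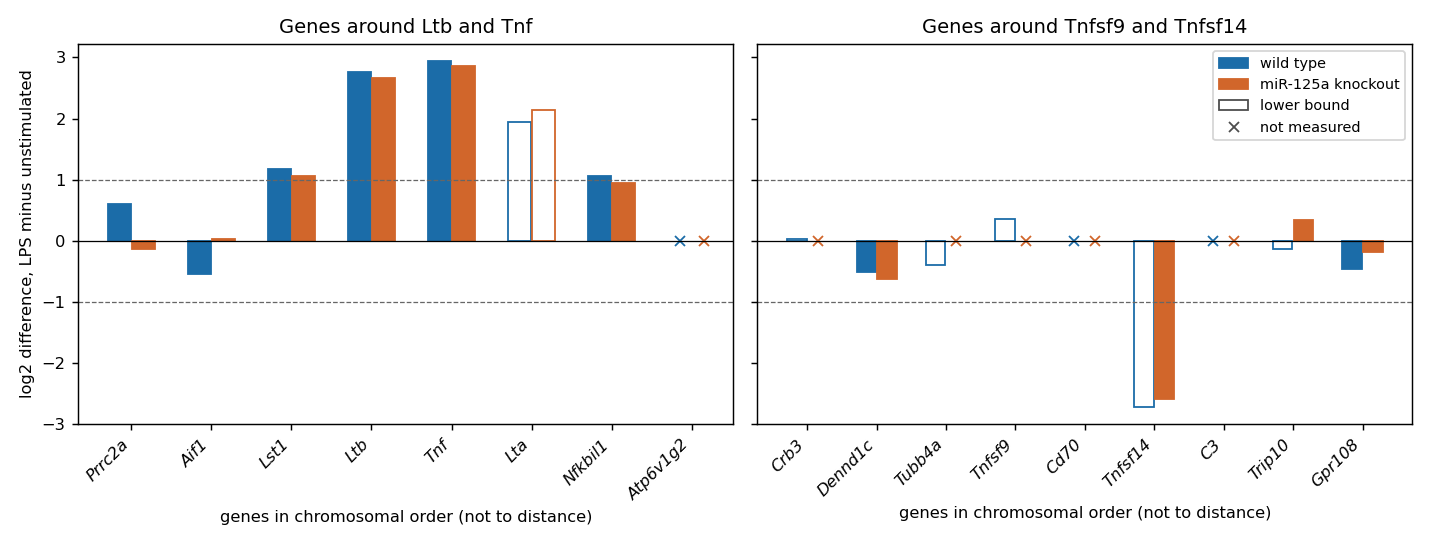
Log2 difference of signal, LPS minus unstimulated (vertical axis), for genes in chromosomal order around Ltb and Tnf (left) and around Tnfsf9 and Tnfsf14 (right), wild type in blue and knockout in orange; open bars are lower bounds, crosses mark genes not measured here, and dashed lines mark 2-fold. Bars from Lst1 to Nfkbil1 point upward on the left, and Tnfsf14 is the gene that passes the lower line on the right, on the deposited scale.

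Genes with the most similar pattern over the 4 arrays were found by the root mean square difference of profiles, each centred on its own mean. For Tnf these were Slc16a10, an amino acid transporter gene, Cdc42ep4, a CDC42 effector gene, and U90926, at 0.05, 0.05 and 0.06 on the log2 scale. For Ltb they were N4bp2l1, Lacc1 and Ninj1, the last a gene of plasma membrane rupture, each at 0.06. For Tnfrsf1b the nearest was Sod2, the mitochondrial superoxide dismutase (0.06), then Mmp14 and Gpr18 (0.09 and 0.11). Tnfaip2 lay nearest to Eva1b, Mvd and Plpp1 (0.02 to 0.03). For Tnfsf14 they were Cmah, Ahr, the gene of a ligand-activated transcription factor, and Sfxn5 (0.06 to 0.07). Tnfsf9 was closest to Dcpp3, Mras and Hps6 (at most 0.01), all above the floor only on the treated wild-type array and so at the same floor value on the other 3. Flooring also set part of the profile of U90926, Lacc1, Eva1b and Plpp1, below the floor on both unstimulated arrays, of Mmp14, below it on that of wild-type cells, and of Ahr, below it on both treated arrays, so their likeness holds for floored values only. These likenesses rest on 4 points per gene.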

How the data were processed

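The submitters pooled RNA of 3 experiments per group and hybridised 1 array each. The authors deposited log2 signals and the submitters' processing notes name MAS5 (version: not given in the sources used here). Trimmed mean signals (2% off each end) were equal on all 4 arrays, which hides any difference common to most genes. Precision is limited by the number of arrays.

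The platform annotation named the probe sets: 34958 had 1 symbol, 932 several and 9211 none listed, and the last 2 kinds and 64 controls were left out. All 14 member probe sets matched the RefSeq table (GRCm38.p6) by Entrez identifier. A gene was represented by its brightest probe set, measured in a comparison if 1 or more of its arrays exceeded the floor. Named genes were all members, called or directly interacting genes of 6 pathway lists, neighbours on chromosome 17, and the 3 nearest profiles of members spanning 2-fold. Tnfsf13b, Rhbdf2 and Zfp36 fall outside this rule and were chosen after their values were seen. Members and lists were chosen with earlier results of these data known. Alternatives were 3 scalings, 3 floors (the 50th and 75th percentiles and none) and 2 treatments of probe sets. Differences were computed with Python 3.11.15 and pandas 2.3.3 and tested on simulated data.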

Additional observations from a re-analysis of the deposited data

Results flagged for a closer look

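The genes Ltb, Tnfrsf1b and Tnfaip2, each above the floor on all 4 arrays, had knockout minus wild-type differences of opposite sign without and with LPS, which was not tested: Ltb with 0.0683 unstimulated and -0.0318 after LPS, Tnfrsf1b with 0.3465 and -0.0205, and Tnfaip2 with 0.0460 and -0.1402 (log2). All are within the middle 95% of all genes, and the treated values of Ltb and Tnfrsf1b turned positive on the poly-A scale (0.05 and 0.06). The treated value of Tnfrsf1b was also positive in the mean over its probe sets (0.28) and in its second probe set (0.58). The unstimulated value of Tnfaip2 was -0.21 in the mean over its probe sets.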

How the results depend on the processing

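No paired analysis was possible because each group holds 1 array. Of 251 member values under the alternatives, 1 call ended and no call reversed: with the floor at the 75th percentile Tnfsf14 in wild-type cells was not called, leaving 0 members lower. Over all settings the LPS differences of Tnf ranged from 2.35 to 3.18 in wild-type and 2.23 to 2.97 in knockout cells, those of Ltb from 2.17 to 3.01 and 2.04 to 2.77, of Tnfrsf1b from 3.08 to 3.92 and 2.61 to 3.41, and of Tnfaip2 from 1.39 to 2.52 and 1.18 to 1.93. Values of other genes run numbered 2256 (called list genes, neighbours, nearest profiles, and the uncalled list genes and markers named with values). Of these, 51 calls ended, 19 appeared in the same direction and 1 in the opposite one, and 0 reversed. Genes lying wholly under a raised floor gave no value there, so the calls they lost are missing from the 51. Tnip2 and Tnfrsf14 were such genes. Their highest values, log2 8.15 and 8.26, lay under the 75th percentile floor of 8.54. The 51 is therefore a minimum.

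The counts over all genes moved more. The main calls were 693 higher and 921 lower after LPS in wild-type cells, 634 and 765 in knockout cells, 33 and 62 by genotype unstimulated, 57 and 58 by genotype after LPS, and 117 and 83 between the responses. On the poly-A scale they were 326 and 2505 after LPS in wild-type cells and 309 and 2667 in knockout cells, with 80 higher by genotype unstimulated and 35 lower after LPS. Median scaling, which moved the median LPS difference in wild-type cells by 0.23, gave 37 and 108 by genotype after LPS and 73 and 137 between the responses. With the floor at the 50th percentile there were 77 and 105 by genotype unstimulated, 138 and 118 after LPS, and 257 and 211 between the responses. With the floor at the 75th percentile there were 528 and 412 lower after LPS (wild type, knockout), 11 and 17 by genotype unstimulated, 16 and 24 after LPS, and 24 and 18 between the responses. With no floor there were 2720 and 3292 after LPS in wild-type cells, 2771 and 3042 in knockout cells, 2149 and 1804 by genotype unstimulated, 2462 and 1898 after LPS, and 2978 and 2784 between the responses. The mean over probe sets gave 90 higher by genotype after LPS. Dim probe sets, Tnfsf9 and Tnfsf10 among them, limit what these arrays can show.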
